A study of Bos taurus with 18 samples.

Results

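CpG-dense stretches of the cattle genome that were methylated in sperm were described here in 18 Holstein bulls. The genome was divided into tiles of 2000 bp, and a tile of chromosomes 1 to 29 was called CpG-dense when the bulls together listed 120 or more CpG positions in it and 9 or more bulls listed at least 1. The members were chosen by their measured methylation: a mean over bulls of 60% or more. Of 8348 CpG-dense tiles, 2960 met this rule, out of 1176978 tiles of these chromosomes listed in 9 or more bulls. The methylation values were therefore used for the choice and are given as a description. Position in the genome, surroundings and differences between trait groups were not named in the rule, but they are not all free of it. Adjacent tiles can share 1 stretch, and membership can hang on a bull of a compared group. Without H08, a bull of the high group for cow conception rate, the rule found 1300 tiles. Depth enters the rule indirectly, because a position is listed when enough reads cover it.

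DNA methylation in mammals is placed mainly on the cytosine of CpG dinucleotides, and the sperm genome is methylated over most of its length. Stretches in which CpGs are packed closely, the CpG islands, usually lie at gene starts and usually stay free of methylation in the germ line. A methylated cytosine mutates readily to thymine, so CpGs are lost over time where the germ line is methylated, and a stretch that is both CpG-rich and methylated in sperm is the less common combination.

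Whole-genome bisulfite sequencing was carried out on sperm DNA of adult Holstein bulls, and the labels sort 16 of the 18 bulls as high or low for up to 3 traits each. For gestation length (GL) the high bulls were H03, H09, L03 and L05 and the low bulls H02, H05, L01 and L07. For sire calving ease (SCE) the high bulls were L02, H03 and H07 and the low bulls L09, H01 and H06, and for body depth (BDE) the high bulls were L03, L08 and H02 and the low bulls L02, H05 and H09. For cow conception rate (CCR) the high bulls were L06, H08 and H09 and the low bulls L08, L09 and H06, and for sire conception rate (SCR) H01, H02 and H03 against L01, L02 and L03. H04 and L04 carry no trait label and entered no group comparison. Each bull is 1 sample, bulls recur in groups of several traits, and the sperm was not checked for other cells here. Coordinates are on the UMD 3.1 assembly. A position is 1 cytosine covered by at least 10 reads in a bull, so that the strands of a CpG count separately, and the bulls listed between 2858992 and 22048556 positions.

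Most CpG-dense tiles had either low or high methylation, as the histogram of their means shows. A mean under 10% was found in 2069 tiles and one from 10% to under 20% in 2377, whereas 2460 tiles had a mean of 90% or more. Between them, 487 tiles lay from 20% to under 30%, 267 from 80% to under 90%, and 109 to 191 in each step of 10 points from 30% to under 80%. Among the 2960 members, 83.1% had a mean of 90% or more, 43.8% a mean of 95% or more, and 7.87% a mean under 80%. The median member had a mean of 94.7%, with quartiles of 92.5% and 95.8%. The members held 120 to 231 positions, with a median of 129, against a median of 28 for all tiles. CpG-dense tiles with a mean under 20% held more, with a median of 150 and up to 426. The contrasts with those tiles below are therefore not at equal CpG density. Just inside the threshold on the mean lay chr13:82338001-82340000, chr15:77238001-77240000 and chr3:114026001-114028000, at 60.04% to 60.22%, and just outside it lay chr23:3226001-3228000, chr24:50744001-50746000 and chr27:41878001-41880000, at 59.94% to 59.97%. At the threshold on positions, 194 members had exactly 120, and 187 tiles with 119 positions had a mean of 60% or more.

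**Figure D1:**
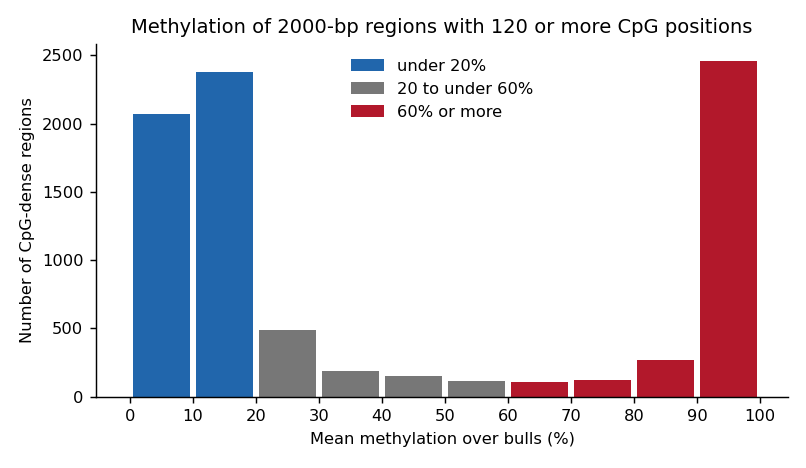
Number of CpG-dense tiles (120 or more CpG positions over all bulls) in each 10-point class of mean methylation over bulls, with colours for means under 20%, from 20% to under 60%, and 60% or more. The outer classes are filled, with 2069 tiles under 10% and 2460 at 90% or more, and the classes between 30% and 80% hold 109 to 191 tiles each.

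The members were highly methylated in each bull. Averaged over the members a bull listed, methylation was lowest in L06, at 88.4%, highest in H06, at 93.4%, and had a median of 92.2% over the 18 bulls. The members were above the mean of all tiles in 18 of 18 bulls, which the rule favours, since all tiles include those with a mean under 60%. L06 was also the lowest bull over all tiles, at 82.1% against a median of 85.5%. CpG-dense tiles with a mean under 20% had bull means of 7.24% to 11.5%. Members with a far lower value in a bull were few: the members that lay 30 or more points below their median over bulls, among those with at least 5 positions in the bull, numbered between 6 in H03 and 41 in L06, with a median of 14.5. As a share of the members with that many positions in the bull, they were 0.214% in H03, 1.43% in L06 and 2.99% in H01, where 16 of 536 members did so.

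**Figure D2:**
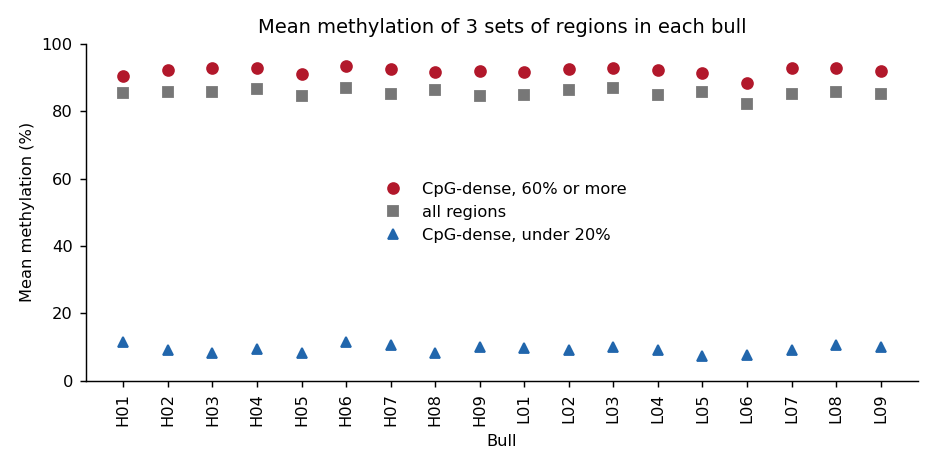
Mean methylation (%) in each of the 18 bulls for the members (circles), all tiles listed in 9 or more bulls (squares) and CpG-dense tiles with a mean under 20% (triangles), 1 point per bull and set. The members lie between 88.4% and 93.4% and above all tiles in every bull, which the rule on the mean favours, with L06 lowest for both.

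The members were gathered near the distal ends of the chromosomes. Cattle autosomes are acrocentric, with the centromere at the start of the coordinates, so the last listed position lies toward the telomere of the long arm. The last 5 Mb of the 29 chromosomes held 1826 members, which is 61.7% of them (95% Wilson interval 59.9% to 63.4%, for counting error only). This share was not among the planned results. The same zones held 5.91% of all tiles and 5.92% of the 4446 CpG-dense tiles with a mean under 20%, of which 263 lay there. Of the 942 CpG-dense tiles with a mean from 20% to under 60%, 232 (24.6%) lay there. Tiles of these zones also held more positions in general, with chromosome means of 40.7 to 76.4 in the last 5 Mb and 26.4 to 43.6 elsewhere, higher in the last 5 Mb on each chromosome, and the part of this in the distal share was not tested. The first 5 Mb held 5.91% of the members and 5.61% of all tiles. Seen from the CpG-dense tiles, 78.7% of the 2321 in the last 5 Mb were members, against 18.8% of the 6027 elsewhere.

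The density changed steeply along the distal zone. It was 15.4 members per Mb in the last Mb, 20.3 from 1 to 2 Mb, 9.08 from 2 to 5 Mb, 2.42 from 5 to 10 Mb, 0.686 from 10 to 20 Mb and 0.302 farther in. CpG-dense tiles with a mean under 20% showed no such gradient, with 0.966 to 2.63 per Mb over the same distances. CpG-rich tiles below the density threshold showed a smaller contrast: among tiles with 80 to under 120 positions, 89.8% in the last 5 Mb and 66.1% elsewhere had a mean of 60% or more. Among tiles with under 40 positions the order was the other way, with 88.8% in the last 5 Mb and 93.1% elsewhere.

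**Figure D3:**
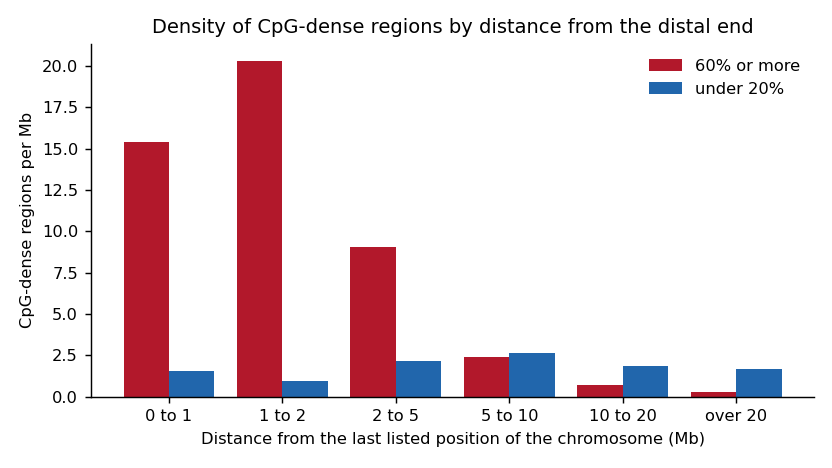
CpG-dense tiles per Mb of chromosome, by distance (Mb) of the tile from the last listed position of its chromosome, over chromosomes 1 to 29 together, for the members (mean of 60% or more) and for tiles with a mean under 20%. The members reach 20.3 per Mb between 1 and 2 Mb from the end and fall to 0.302 beyond 20 Mb, whereas the tiles of low methylation stay between 0.966 and 2.63.

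The distal excess was found on 28 of 29 chromosomes, taken as a larger share of members than of all tiles in the last 5 Mb, and on 19 chromosomes that zone held more than 50% of the members. The share had a median of 67.2% over chromosomes and was highest on chromosome 10, with 44 of 50 members. Chromosome 18 was the exception. It held 140 members, of which 5, or 3.57%, lay in the last 5 Mb, against 6.89% of its tiles. Its members were found instead in windows such as 8 to 9 Mb, with 30 members, 5 to 6 Mb, with 22, and 11 to 12 Mb, with 21. On chromosomes 14 and 24 members lay at the start as well: 51 of 76 members of chromosome 14 and 53 of 101 of chromosome 24 were in the first 5 Mb. On chromosome 27, 18 of 66 members were in the first 5 Mb and 8 in the last, or 12.1% against 11.2% of its tiles. A further group stood on chromosome 6, where the 3 neighbouring windows of 1 Mb from chr6:107000001-108000000 onward held 21, 18 and 20 members.

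The counts per chromosome ran from 7 on chromosome 28 and 25 on chromosome 7 to 226 on chromosome 22 and 246 on chromosome 23. At least 1 member lay in 460 windows of 1 Mb. The fullest windows were chr23:51000001-52000000, with 75 members and 2 CpG-dense tiles of low methylation, chr12:89000001-90000000, with 68 and 1, and chr22:59000001-60000000, with 67 and 1. These windows began 1.53, 2.16 and 2.44 Mb before the last listed position. Most members nevertheless stood alone, since 2250 had no member next to them and 710 had one. The longest run had 6 members, at chr23:51440001-51452000, with means of 92.8% to 97.0%. Runs of 5 members were found at chr4:119140001-119150000, chr8:111752001-111762000, chr23:50256001-50266000 and chr26:50010001-50020000, with means of 92.0% to 96.5%, and these 5 runs lay 1.09 to 2.27 Mb from the end.

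The surroundings of the members were methylated as well, as are most tiles, with a median of 92.1% over all tiles. The next tile before a member had a mean of 91.6% and the next tile after it 91.5%, and at 20 kb the means were 89.4% and 88.6%. What changed along these stretches was CpG density, which the rule used, with a mean of 133 positions in the member, 88.5 and 88.6 in the adjacent tiles and 76.6 and 77.4 at 20 kb. CpG-dense tiles with a mean under 20% stood in a trough of methylation: the adjacent tiles had means of 33.6% and 34.1%, rising to 63.6% and 62.3% at 20 kb. A tile with a mean under 20% lay within 2 kb of 25 members (0.845%) and within 10 kb of 233 (7.87%). Of the CpG-dense tiles of low methylation, 67.6% and 76.2% had another tile with a mean under 20%, of any density, at these distances. Adjacent tiles can share 1 stretch, so the choice of tiles by methylation favours this contrast. The shares were not taken over all tiles. The share within 10 kb was 6.95% for members in the last 5 Mb and 9.35% for members elsewhere.

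**Figure D4:**
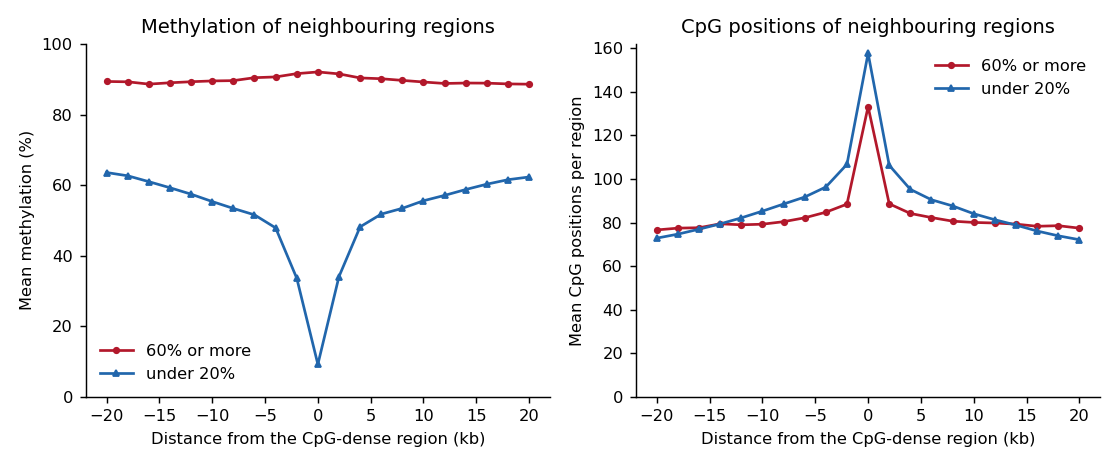
Mean methylation (%, left) and mean number of CpG positions per tile (right) of the tiles up to 20 kb on both sides of the members and of CpG-dense tiles with a mean under 20%, against distance (kb). Methylation stays between 88.6% and 92.1% around the members while positions fall from 133 to under 80, and around the tiles of low methylation it rises from 9.20% to over 60%.

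Within the members methylation was mostly even from one CpG to the next. On average 90.5% of a member's positions had a mean of 80% or more over the bulls listing them, 7.51% lay from 20% to under 80%, and 2.02% under 20%. In 2035 members (68.8%) no position was under 20%. A mosaic of high and low positions was found in 93 members (3.14%), in which 20% or more of the positions were under 20%, and 87 members held at least 10 such positions in a row. The mean level was lower where CpGs were most crowded. Positions with 1 to 2 listed CpG sites within 50 bp on either side had a mean of 91.9%, and 0.939% of them were under 20%. With 3 to 4, 5 to 6 and 7 to 9 sites the means were 92.4%, 92.3% and 91.1%. Positions with 10 or more sites had a mean of 85.8%, and 5.62% were under 20%, although their median, at 96.0%, was as high as that of the sparse positions, at 95.7%.

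The members were thinly listed in most bulls. The share of a member's positions that a bull listed was 1.92% in H01, had a median of 15.6%, and reached 65.5% in H08. It was below the share in all tiles in 15 of 18 bulls. H08 carries much of the membership, since in the median member 9.36% of the positions were listed by H08 alone, and without H08 the same rule found 1300 tiles. Of these, 1297 were among the 2960, and 59.5% lay in the last 5 Mb, against 61.7% of all members. Leaving out any other bull gave 2265 to 2953 members.

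Reads per listed position could be compared in the 6 bulls with deposited coverage. The members had a mean of 12.1 to 13.6 reads per position and CpG-dense tiles with a mean under 20% one of 28.2 to 31.9, so the members had 0.383 to 0.480 of that coverage (median 0.425), lower in 6 of 6 bulls. All tiles had 12.7 to 13.3 reads. A mean of 20 reads or more was found in 46.3% of the CpG-dense tiles of low methylation (2052 of 4432) and in 15 of 2941 members (0.510%). Both counts take tiles with at least 20 covered positions, summed over the 6 bulls. Among tiles with under 20 reads on both sides the ratio was 0.834 to 0.918 (median 0.888). This cut is on coverage itself, and listing starts at 10 reads, so the ratio is drawn toward 1 by the choice of tiles. The 2380 tiles of low methylation with under 20 reads had 5.97% in the last 5 Mb, against 61.7% of the members. Their neighbours had means of 46.4% and 47.1%, against 33.6% and 34.1% for all CpG-dense tiles of low methylation and 91.6% and 91.5% for members. Another tile with a mean under 20% lay within 2 kb of 46.7% of them, against 67.6% of all CpG-dense tiles of low methylation. The contrast in surroundings was thus smaller there. Members with the highest coverage were chr3:8106001-8108000 and the adjoining chr3:8108001-8110000, at 48.9 and 48.4 reads, and chr17:51378001-51380000, at 38.4 reads and a mean of 91.6%. The pair on chromosome 3 had 211 and 226 positions and means of 85.6% and 72.2%. In the second of them bulls ranged from 51.4% in L06 through a median of 69.9% to 88.7% in L08. The part of depth in these levels and contrasts was not tested.

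Among the members with most positions, chr17:51376001-51378000 held 231 and had a mean of 88.9%, with bulls from 77.0% to 94.0% around a median of 90.3%. After the chromosome 3 tile above came chr8:104994001-104996000 (222 positions, 88.5%), chr11:99430001-99432000 (220 positions, 94.4%) and chr27:15504001-15506000 (213 positions, 93.8%). L06 was the lowest bull in these 3 and H07 in the tile on chromosome 17.

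The bulls differed little in most members. The SD between bulls had a median of 3.26 points, against 5.32 in tiles with a mean of 60% or more and under 120 positions. Those tiles also rest on fewer positions and were somewhat less methylated, with a median of 92.8% against 94.7%. The steadiest members listed in 18 bulls were chr11:107096001-107098000, with a mean of 95.9% ± 0.831 (SD, n = 18), chr2:134160001-134162000, with 95.5% ± 0.906, and chr8:111864001-111866000, with 97.1% ± 0.910. In the first of them bulls lay between 94.5% and 97.8%, with a median of 95.7%. At the other end, 343 members had an SD of 10 points or more and 75 an SD of 20 or more. The SD was highest at chr4:120008001-120010000, where H01 had 1.43%, the median bull 77.9% and L04 95.7% (61.5% ± 35.0, SD, n = 18). It was also high at chr27:23416001-23418000, from 0.667% in H09 through a median of 67.3% to 100% in H01 and L08 (60.7% ± 34.0), and at chr16:77316001-77318000, from 13.8% in L06 through 69.3% to 100% in H01 (67.5% ± 26.9).

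Bulls listed different positions of a tile, so the spread was also taken at shared positions. In the 3 members with the highest SD, between 43.4% and 66.4% of the positions were under 20%. When only positions listed in 5 or more bulls were used, in the 2435 members where at least 9 bulls listed 5 or more of these, 59 had an SD of 15 points or more. After each position's mean over bulls was subtracted, 7 did, and the median SD changed from 3.06 to 2.51 points. At chr16:77316001-77318000 the SD fell from 6.81 to 2.97 points in this way and at chr4:120008001-120010000, over 11 bulls, from 10.3 to 7.29, whereas chr27:23416001-23418000 had too few bulls with shared positions. Subtracting a mean to which a bull itself contributes lowers the SD even without differences in listing. Where only some bulls listed a position, the subtraction can also remove a difference between those bulls and the rest. After the subtraction the SD was highest at chr26:49508001-49510000, with 21.0 points before and 19.1 after, chr2:126352001-126354000, with 17.95 and 17.12, and chr21:56668001-56670000, with 22.1 and 16.8. In the first of these bulls ranged from 36.2% in L06 through a median of 66.7% to 89.4% in L08, and 1.29% of the positions were under 20%. In the third they ranged from 26.9% in L06 and L09 through 59.1% to 98.0% in L08, and no position was under 20%. These 3 members were named after their values were seen, and 52 members in all had an SD of 10 points or more after the subtraction.

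A repeating arrangement of CpGs was rare. A tile was counted as repeating when 1 shift of 20 to 500 bp carried at least 60% of the positions that could map within the tile onto other positions. This was met by 5 members (0.169%) and by 1 of the 4446 CpG-dense tiles with a mean under 20%. With 50% of positions in place of 60%, it was met by 5 members and 8 of those tiles, so the sets did not keep their order. The members were chr6:108236001-108238000 (shift of 55 bp, mean of 92.5%), chr9:104404001-104406000 (68 bp, 95.7%), chr25:40052001-40054000 (58 bp, 83.8%), chr13:8210001-8212000 (46 bp, 66.8%) and chr24:57100001-57102000 (322 bp, 76.2%). They were singled out by this pattern after the data were seen.

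In the last 2 of these, bulls fell into separate clusters. At chr24:57100001-57102000, H01, H04, H06, H09, L01, L05 and L07 had 41.9% to 48.9% and listed 86 to 165 of the 208 positions, whereas the other 11 bulls had 90.7% to 100% and listed 1 to 10 positions. At chr13:8210001-8212000 the same 7 bulls and H08 had 41.2% to 49.4%. They listed 12 positions in H08 and 92 to 170 in the others, of 189, whereas 8 bulls had 77.3% to 95% and listed 1 to 5. H01, which listed 1.92% of member positions in general, listed 86 and 92 positions here, with a mean coverage of 25.5 and 18 reads, and L01 had 35.7 and 33.6 reads. The bulls with few positions listed none with a mean under 20%, and at chr24:57100001-57102000 every bull of the first cluster listed 12 to 31 such positions. The SD over bulls at chr24:57100001-57102000 was 25.2 points and fell to 2.68 points after the position means were subtracted. A position listed by 1 cluster alone takes its mean from that cluster, so this fall cannot tell listing from a difference between the clusters. The clusters were read from these values and follow no trait label. Whether the reads of both clusters came from the same DNA copies was not tested, so the levels of the clusters may not be comparable.

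**Figure D5:**
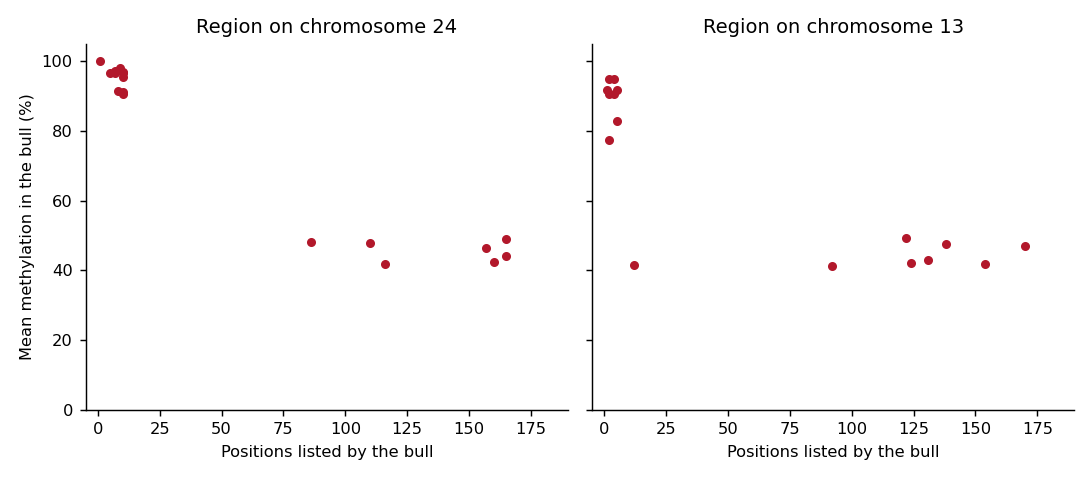
Mean methylation of a bull (%) against the number of positions the bull listed, 1 point per bull, in the members at chr24:57100001-57102000 (left, 18 bulls) and chr13:8210001-8212000 (right, 16 bulls). Bulls listing 1 to 10 positions lie at 77.3% or above, and bulls listing 12 or more lie between 41.2% and 49.4%.

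Trait groups were compared in the members that every bull of a comparison listed, by a logistic regression over all tiles of the genome (q under 0.01 and a difference over 5 points). This test does not model the spread among bulls, and members hold more positions, and so more counted reads, than the typical tile. The part of this in the counts below was not tested. The median size of the difference was smaller in members than in all tiles in each trait. It was 1.40 against 1.95 points for GL, 1.70 against 2.45 for SCE and 1.80 against 2.42 for BDE. For CCR it was 1.69 against 2.34 points and for SCR 1.56 against 2.41. Members also rest on more positions and lie nearer to 100%, with a median of 94.7% against 92.1% for all tiles. The part of this in the smaller differences was not tested. limma, which uses the spread between bulls, called 0 members and 0 tiles in each of the 5 traits (0.0% of tiles in GL, SCE, BDE, CCR and SCR). With 3 or 4 bulls per group and adjustment over 537495 to 593044 tiles, this does not show that differences are absent. At an unadjusted p under 0.05 limma held 114 members for GL (4.68%, against 4.91% of all tiles), 54 for SCE (4.38%, against 3.81%) and 101 for BDE (4.63%, against 4.41%). It held 141 for CCR (5.99%, against 4.11%) and 41 for SCR (3.25%, against 4.03%). The percents of single bulls in the members named below rest on the positions each bull listed, which were few in some. For the loss and the gain, the fewest in a bull were 5 and 14 for GL, 4 and 4 for SCE and 5 and 5 for BDE. They were 4 and 5 for CCR and 2 and 2 for SCR.

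For GL, 2437 members were tested and 243 called (9.97%), against 8.75% of all tiles tested. Of these, 126 were lower in the high group (5.17%, against 3.75%) and 117 higher (4.80%, against 4.99%). The groups did not overlap in 87 members (3.57%, against 3.3%). With 13 reads per position in place of 10, the order turned, with 11.2% of members and 12.2% of all tiles called. The loss of greatest size among called members without overlap was chr27:23416001-23418000, where high-GL bulls had 0.667% (H09), 21.9% (L03), 30.9% (H03) and 38.6% (L05) and low-GL bulls 42.1% (H05), 84.99% (L01), 95.1% (H02) and 98.3% (L07). The pooled difference was -39.7 points, but at 23 positions listed in both groups it was 3.52 points in the other direction. The corresponding gain was chr2:134190001-134192000, with 79.6% (L05), 84.3% (L03), 88.4% (H03) and 90.3% (H09) against 63.2% (L07), 69.0% (H05), 69.5% (H02) and 73.8% (L01). Its difference of 15.3 points came to 0.297 points at 27 matched positions.

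For SCE, 127 of 1233 members were called (10.3%, against 6.18% of all tiles), and without H01, which limited the number tested, 221 of 2472 (8.94%, against 6.8%). The calls were lower in the high group in 63 members (5.11%, against 3.54%) and higher in 64 (5.19%, against 2.64%), and the groups did not overlap in 118 (9.57%, against 9.26%). The loss of greatest size was chr4:118548001-118550000, with 44.5% (H07), 46.7% (H03) and 56.9% (L02) in the high group and 70% (H01), 96.0% (H06) and 96.5% (L09) in the low group. Its difference of -42.6 points was 1.09 points at 23 matched positions. The gain was chr9:104192001-104194000, with 85.7% (H07), 91.8% (H03) and 93.1% (L02) against 62.4% (H01), 75.3% (L09) and 77.9% (H06). Here the difference held at 38 matched positions, at 23.3 points against 18.6 over all listed positions, with a limma adjusted p of 1.

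For BDE, 252 of 2183 members were called (11.5%, against 7.57%), of which 92 were lower in the high group (4.21%, against 2.86%) and 160 higher (7.33%, against 4.71%). The groups did not overlap in 265 members (12.1%, against 10.1%). The loss of greatest size was chr3:115216001-115218000, with 8.18% (L03), 45.0% (L08) and 48.5% (H02) against 59.6% (H05), 65.9% (L02) and 88.5% (H09), and its difference of -25.9 points was 2.97 points at 19 matched positions. The gain was the repeating tile chr24:57100001-57102000, with 96.7% (H02), 96.8% (L08) and 97.3% (L03) against 48.9% (H09), 90.7% (L02) and 95.4% (H05). H09 lay far from the other 5 bulls, and the pooled difference of 43.3 points was 3.40 points at 10 matched positions.

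For CCR, 335 of 2354 members were called (14.2%, against 11.1%), and 274 of these were lower in the high group (11.6%, against 8.48%) and 61 higher (2.59%, against 2.58%). With 13 reads per position, 15.1% of members and 15.2% of all tiles were called. The groups did not overlap in 302 members (12.8%, against 9.94%). The high-CCR group holds L06, the bull with the lowest methylation over all tiles, and H08, which listed the largest share of the members' positions. Without L06, 296 members were called (12.5%, against 8.79% of all tiles), and without H08, 469 (19.9%, against 16.9%). In both fits the members were still those chosen with every bull, including the bull left out. Without H08 the rule found 1300 tiles, of which 1297 were among the 2960 members. Neither the main fit nor the fit without H08 is therefore free of that bull, and calls were not counted among those 1297 tiles alone. The loss of greatest size was chr13:79944001-79946000, with 28.8% (H08), 58.8% (H09) and 60.9% (L06) in the high group and 76.1% (H06), 97.5% (L08) and 99.2% (L09) in the low group. Its difference of -48.9 points was -10.6 points at 25 matched positions. The gain was chr22:56892001-56894000, with 80.6% (L06), 90.1% (H09) and 91.4% (H08) against 60% (H06), 69.6% (L08) and 71.8% (L09), and its difference of 19.1 points was -3.82 points at 22 matched positions.

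For SCR, the comparison with listed coverage in every bull, 134 of 1261 members were called (10.6%, against 8.68%), 63 lower in the high group (5.0%, against 4.54%) and 71 higher (5.63%, against 4.13%). The groups did not overlap in 120 members (9.52%, against 9.13%). With a difference over 10 points the order turned, with 5.31% of members and 5.64% of all tiles called. H01, with the fewest positions, limited the number tested: without it 257 of 2549 members were called (10.1%, against 9.38% of all tiles). The loss of greatest size was chr9:105026001-105028000, with 37.5% (H02), 40.5% (H03) and 50% (H01) against 50.02% (L03), 70.5% (L01) and 96.2% (L02), and the gain was chr22:54856001-54858000, with 75.4% (H03), 82.5% (H02) and 96.4% (H01) against 30.3% (L03), 50.4% (L02) and 59.5% (L01). Their differences of -38.9 and 25.8 points were -3.53 points at 22 and 2.84 points at 9 matched positions. The matched values count 10 reads per position, whereas the pooled SCR values use listed counts, so the change is not from matching alone.

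Called differences were then read where both groups listed the same CpGs. The share of called members with a matched position that there stayed over 5 points and on the same side was 28.8% for GL, 37.0% for SCE, 39.4% for BDE, 51.6% for CCR and 32.1% for SCR. The same share was not taken over all called tiles, so these values cannot be called particular to the members. A test stratified by position called 67 members for GL (2.75%, against 2.19% of all tiles), 32 for SCE (2.6%, against 1.31%) and 56 for BDE (2.58%, against 1.6%). It called 165 for CCR (7.01%, against 4.4%) and 25 for SCR (1.99%, against 1.17%). Of the 10 members named for a trait, 2 stayed over 5 points and on the same side, the SCE gain on chromosome 9 and the CCR loss on chromosome 13.

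None of the 25 genes fine-mapped for gestation length, extended by 2 kb, held a member. Members were rare in general, at 2960 of 1176978 tiles, and these genes held 2 to 100 tiles each. Their absence is therefore not read as a property of these genes. Of these genes PCDHA13, a protocadherin gene that codes for a cell adhesion protein, was the one with CpG-dense tiles, and 6 of its 7 had a mean under 20%.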

How the data were processed

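The authors checked the reads with FastQC 0.11.2 and trimmed them with Trim Galore 0.4.0. They mapped the reads to UMD 3.1 with Bowtie2 and extracted methylation with Bismark 0.14.5. The authors deposited, per bull, a methylation percent for CpG positions with 10 or more reads. For 6 bulls the authors also deposited the read count (coverage), from 10 to 100, and positions with more reads may have been left out. For 12 bulls the depth is unknown.

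The mean percent per tile of 2000 bp was taken in each bull. Trait groups were compared by a logistic regression, its likelihood ratio test and a simplified SLIM q, after the study's methods, with 10 reads per position (SCR: listed counts), over every tile that all bulls of a comparison list. Alternatives were limma 3.58.1 under R 4.3.3 with Benjamini-Hochberg adjustment, on log2 ratios of methylated to unmethylated reads from the deposited values (1 read added), and a Cochran-Mantel-Haenszel test with positions as strata, at matched positions (listed by some bull of both groups). The Cochran-Mantel-Haenszel test and the matched differences counted 10 reads per position in each trait, SCR included. The logistic test was tested on simulated data for GL: of 593044 tiles with 200 changed by 30 points and no spread between bulls, it called 198 changed and 1 unchanged. Python 3.11.15, NumPy 2.4.6, SciPy 1.17.1, pandas 2.3.3 and matplotlib 3.10.9 were used.

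Members, lists and comparisons were chosen with earlier results of these data known. Named members were those with most positions, longest runs, highest and lowest SD among members listed in 18 bulls, highest coverage, nearest to the thresholds, and the loss and gain of greatest size per trait among called members without overlap. Where others are named, the text says so. Sequences and lists of imprinted, protocadherin, zinc finger, germ cell, sperm, methylation and HOX genes were not analysed here, since no annotation of this assembly was used beyond the fine-mapped genes. Intervals cover counting error only, and of the tests of trait groups limma alone uses the spread between these bulls.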

Additional observations from a re-analysis of the deposited data

Results flagged for a closer look

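The rule was applied to chromosomes 1 to 29, and CpG-dense tiles of high methylation were also found in the data outside them. On the X chromosome 8 of 108 CpG-dense tiles (7.41%) had a mean of 60% or more, with a median of 95.2% and a range of 72.2% to 96.5%, and 98 had a mean under 20%. On the contigs not placed on a chromosome 54 of 286 (18.9%) did, with a median of 94.0% and a range of 60.9% to 96.7%, and 71 had a mean under 20%. In the GL groups of 4 bulls no value of the members passed the 95% critical value of Dixon's gap test, which few values can pass at this size. L05 nevertheless listed 36.1% of member positions against 11.3% to 18.98% in the other high-GL bulls (gap over range 0.69), and L01 listed 23.9% against 11.7% to 15.6% in the other low-GL bulls (0.679). H05 had 3.79% of its members, among those with 5 or more positions, under 60% methylation, against 1.29% to 2.02% in the other low-GL bulls (0.707). The groups of 3 were not tested.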

How the results depend on the processing

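The number of members moved with the density threshold, to 10391 with 100 positions and 696 with 140, and to 1064 when 18 bulls had to list the tile. Leaving out 1 bull gave 1300 (without H08) to 2953. Means of 50 or 70, the median over bulls and shifted tiles kept it within 1.5 times. The share in the last 5 Mb was 54.7% with 100 positions, 64.8% with 140, and 59.5% to 62.5% without 1 bull. In zones of 2 and 10 Mb, widths chosen after seeing the data, it was 35.0% and 73.5%, against 2.32% and 12.0% of all tiles. The share in the last 5 Mb was itself not a planned result.

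Called members fell to 0 with limma in each trait, which with so few bulls per group does not show that differences are absent. In the order GL, SCE, BDE, CCR and SCR, called members were 67, 32, 56, 165 and 25 with the position-stratified test, a larger share than of all tiles in each trait. With a difference over 10 points they were 114, 74, 141, 207 and 67, which is 4.68%, 6%, 6.46%, 8.79% and 5.31% of members against 4.9%, 4.65%, 5.53%, 7.09% and 5.64% of all tiles, so members were below all tiles for GL and SCR. With at least 3 positions per bull they were 75 of 679 for SCE (11% against 6.63%) and 71 of 703 for SCR (10.1% against 9.33%). Without 1 bull they were 223 to 295, 138 to 221, 213 to 275, 296 to 469 and 139 to 257. A larger share of members than of all tiles was called in every such fit, among members still chosen with all 18 bulls. The median size of the difference, with every bull of the comparison, was smaller in members than in all tiles in each trait. Members rest on more positions and are more methylated, and the part of this was not tested. SCE and SCR passed 1.5 times without H01, at 221 and 257, with 2472 and 2549 members tested (8.94% against 6.8%, and 10.1% against 9.38%). With 13 reads per position, 11.2% of members were called against 12.2% of all tiles for GL, 12.4% against 10.1% for SCE, 13.8% against 11.6% for BDE and 15.1% against 15.2% for CCR, and for SCR with 10 reads 8.88% against 6.05%.

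The coverage ratio was 0.537 with median coverage and 0.888 among tiles under 20 reads. The latter comparison was added after seeing the data, and its cut on coverage itself draws the ratio toward 1. Repeating members were 0.575% (4 of 696) with 140 positions. With 50% of positions mapping, 5 members and 8 tiles of low methylation repeated. No paired analysis was possible because replicate numbers of the labels mark no pairs across groups. Depth limits the description, since 12 bulls have no coverage and members are thinly listed.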
